A study of Mus musculus with 12 samples.

Results

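The Kruppel-like factor (KLF) genes studied here are Klf2, Klf3, Klf4, Klf6, Klf7, Klf9, Klf10, Klf11, Klf12 and Klf13, and their members in the data are the regions of open chromatin ("peaks") that the deposited tables assign to one of these 10 genes. There were 123 such peaks among 60288 in untreated mice and 127 among 54953 in mice given lipopolysaccharide (LPS). The rule used the gene names in the tables and no measured value. In untreated mice Klf4 had 26 of the peaks, Klf12 22, Klf7 17, Klf3 13, Klf6 11, Klf2, Klf10 and Klf13 8 each, Klf9 7 and Klf11 3. After LPS Klf4 had 30, Klf6 and Klf7 17 each, Klf12 15, Klf3 12, Klf13 10, Klf9 9, Klf2 8, Klf10 7 and Klf11 2. Most were intergenic (87 and 97), with 15 and 12 at promoters, 18 and 15 in introns and the rest in exons or at transcript ends. All 123 untreated peaks exceeded 10 tags in at least 1 library and were tested, while 13 of the 127 LPS peaks, in 6 genes, did not and were left out of the tests by peak. The measurement was ATAC-seq, in which the Tn5 transposase inserts sequencing adapters into accessible DNA, so that the number of sequenced tags in a peak reflects how open that stretch is. It does not measure RNA or protein.

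The cells came from C57BL/6J wild-type mice that were irradiated with 950 cGy and received donor bone marrow (BM). The labels give 3.5 or 9 months between transplantation and analysis without saying which applies to which mouse. According to the paper, chromatin was profiled after the longer of these intervals. From each brain, CD45.1 cells, which are macrophages derived from the BM graft, and CD45.2 cells, which are the microglia of the host, were sorted separately. Mice 4, 5 and 6 were untreated, and mice 1, 2 and 3 received LPS, a bacterial cell wall product that activates macrophages, at 2.5 mg/kg and were analysed 12 h later. Each of the 4 groups thus had 3 libraries, and all mice, the untreated ones included, had been irradiated and transplanted. The host microglia of both groups therefore stayed in an irradiated brain and were themselves irradiated, whereas the CD45.1 cells descend from donor cells that were not. The 2 treatments were tabulated over separate peak sets, so treatment and table cannot be told apart.

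KLF proteins are transcription factors that bind GC-rich and CACCC-type sequences through zinc fingers near the carboxyl end, and they differ in the cofactors that their other parts recruit. Klf2, Klf4 and Klf6 often act as activators and are known regulators of macrophage activation, quiescence and endothelial function. Klf3 and Klf12 recruit the corepressor CtBP, and Klf9, Klf10, Klf11 and Klf13 recruit the corepressor Sin3A. Klf9 is also a classical target of the glucocorticoid receptor, and Klf10 and Klf11 were named for their induction by TGF-beta.

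Library depth was 8392880 to 9107770 tags in untreated and 2966360 to 6556590 tags in LPS libraries, of which 18.4% to 39.0% lay in the merged peaks. The library of CD45.2 cells of untreated mouse 4 had the lowest share in peaks, 18.4%, and that of CD45.2 cells of LPS mouse 1 the fewest tags. The 8 microglial marker genes had peaks in both treatments, and their summed tags were higher in all CD45.2 libraries (3350 to 3676 in untreated mice) than in all CD45.1 libraries (1627 to 2263). The sum over 7 markers of monocytes and border macrophages went the other way, with 719 to 776 in CD45.2 and 1347 to 1362 in CD45.1 libraries of untreated mice.

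Summed over its peaks, 1 of the 10 loci differed between the populations, and it did so in both treatments (plot of tags summed by gene). The peaks assigned to Klf12, a repressor, were far more open in host microglia. In untreated mice its 22 peaks together held 46.9, 37.1 and 35.9 normalised tags in the CD45.1 libraries of mice 4, 5 and 6, and 632, 562 and 604 in the CD45.2 libraries of the same mice. No library of one population came near the other, and the fitted log2 ratio of CD45.1 over CD45.2 was -3.90 ± 0.17 (SE, n = 3 per population, adjusted p = 1.02e-109, DESeq2). After LPS its 15 peaks held 25.4, 30.5 and 30.3 tags in CD45.1 cells of mice 1, 2 and 3 and 390, 267 and 246 in CD45.2 cells, a log2 ratio of -3.38 ± 0.25 (SE, n = 3, adjusted p = 1.84e-37, DESeq2). Of these Klf12 peaks, 21 of 22 in untreated mice and 14 of 15 after LPS were in no peak list of a CD45.1 library. They entered the sums through the population in which they are high, so the summed ratios and their p are not independent of that selection. Fewer cells of a type and less open DNA per cell cannot be told apart in such bulk libraries. Over all genes, 7.46% of 16174 loci passed as higher in CD45.2 cells and 7.35% as higher in CD45.1 cells in untreated mice, and 2.98% and 4.08% of 15722 loci after LPS. Normalised tags are tags divided by the size factor of the library, which DESeq2 estimates within each table.

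**Figure D1:**
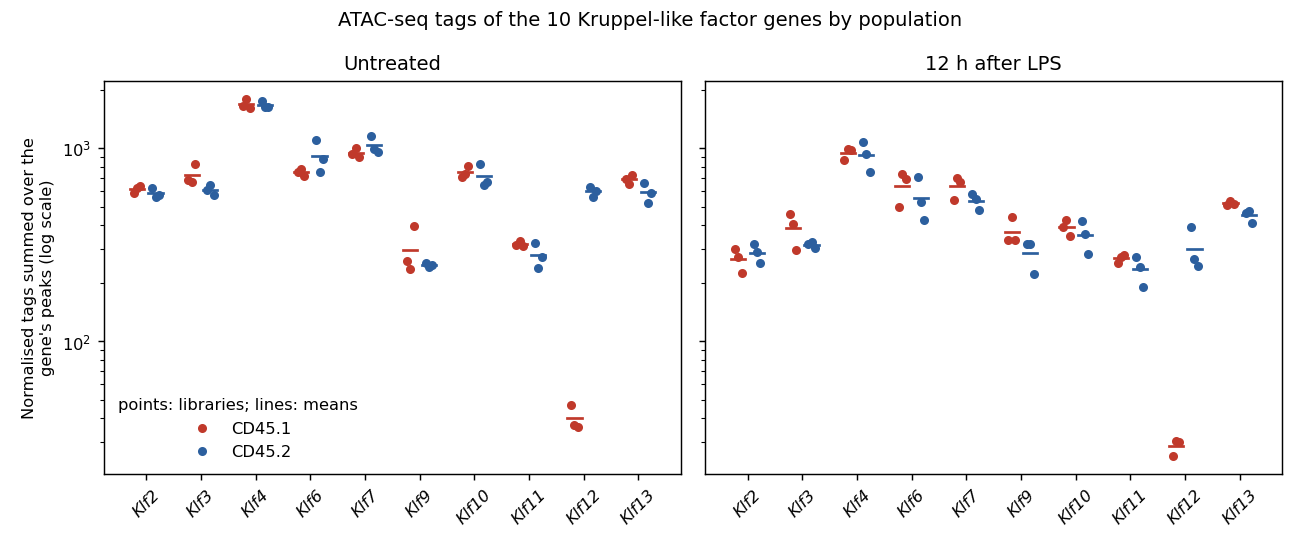
Normalised ATAC-seq tags summed over all peaks of each gene (log axis), for the 3 CD45.1 libraries (red) and the 3 CD45.2 libraries (blue) of untreated mice (left) and of mice 12 h after LPS (right), with lines at the means. Klf12 stands at 35.9 to 46.9 tags in CD45.1 against 562 to 632 in CD45.2 libraries of untreated mice, while the other genes lie close together, and levels should not be compared between the panels because each table was scaled on its own.

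The other loci lay within a narrow band. Their fitted log2 ratios lay between -0.27 (Klf6) and 0.26 (Klf9) in untreated mice, and between -0.10 (Klf2) and 0.37 (Klf9) with LPS. None passed at an adjusted p under 0.05 by DESeq2. At an unadjusted p under 0.05, 2 of these 9 loci were higher in CD45.1 and 1 in CD45.2 cells of untreated mice, and 1 and 0 after LPS. No share of all loci was taken at that limit, so these counts cannot be set against a background. edgeR found 0 of the 9 in either treatment. The 95% interval of the log2 ratio was -0.14 to 0.18 for Klf4, the locus with the most peaks, and -0.11 to 0.28 for Klf2 in untreated mice. Klf3, a repressor known from blood cell development, had 689, 670 and 826 tags in CD45.1 and 608, 648 and 572 in CD45.2 cells, groups that did not overlap, with a log2 ratio of 0.25 ± 0.11 (SE, n = 3) and an adjusted p of 0.105 (DESeq2). Klf6, an injury-response activator, had 757, 784 and 722 tags in CD45.1 and 1111, 754 and 883 in CD45.2 cells. The highest of these was the CD45.2 library of mouse 4, whose tags were also the most concentrated at promoters (46.1% of peak tags against 42.2% to 44.6% in the others). Without that library the log2 ratio of Klf6 was -0.12 instead of -0.27, and without the CD45.2 library of mouse 5 it was -0.39 and passed (adjusted p = 0.0168, DESeq2). The Klf9 ratio of 0.26 in untreated mice was 0.0067 without the CD45.1 library of mouse 6, and 0.41 without that of mouse 5.

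The Klf12 peaks lay away from its start site. It had no promoter peak in either treatment, and the nearest upstream peak lay at -53700 bp in untreated mice. In the mm9 annotation Klf12 occupies chr14:100269869-100549015 on the minus strand. Of its 22 peaks in untreated mice, 6 lay in introns of the gene, 69925 to 254900 bp downstream of the start, and 16 lay upstream in intergenic DNA out to -335856 bp. A group of 7 stood between -77127 and -53700 bp, and it included the 4 with the smallest adjusted p. Klf12 is the nearest start site to all of its 22 peaks, which does not show that they act on it.

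**Figure D2:**
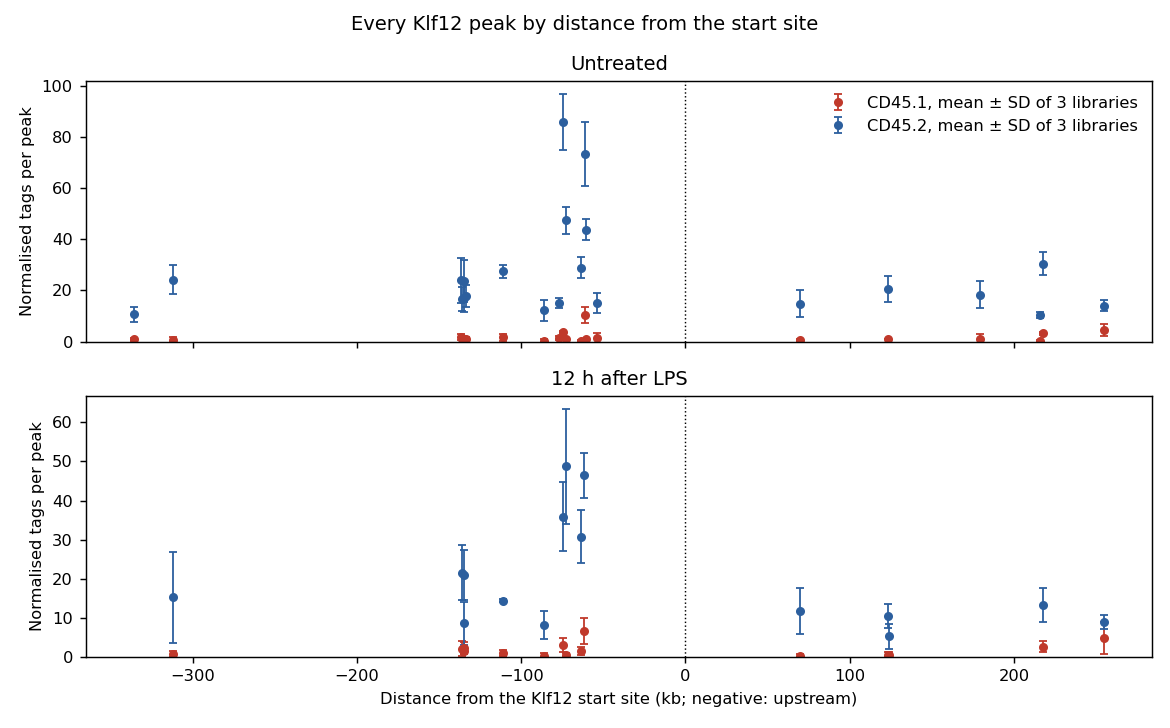
Mean normalised tags (± SD, n = 3 libraries) in each Klf12 peak against its distance from the Klf12 start site in kb, for CD45.1 (red) and CD45.2 (blue) cells of untreated mice (top) and mice 12 h after LPS (bottom). The CD45.2 values are highest 60 to 75 kb upstream, up to 85.9 tags in untreated mice, and no CD45.1 mean exceeds 10.4 tags there.

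The sequences of the 2 Klf12 peaks with the smallest adjusted p are shown because the difference between the populations rests most firmly on them. They are given with 4 peaks of other members that the results below turn on. Each is the 200 bp around the peak's centre on the plus strand of mm9, and capitals mark matches to 8 motifs searched on both strands. These were CCACACCC and GGGGCGGG (KLF and Sp factors), GAGGAAGT (PU.1), TGANTCA (AP-1), TTGCNNAA (CEBP), TATTTNTAG (MEF2), TGTGGT (RUNX) and GAAANNGAA (IRF), with N for any base, and matches to different motifs may overlap.

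Klf12 at -74553 bp, chr14:100623469-100623668: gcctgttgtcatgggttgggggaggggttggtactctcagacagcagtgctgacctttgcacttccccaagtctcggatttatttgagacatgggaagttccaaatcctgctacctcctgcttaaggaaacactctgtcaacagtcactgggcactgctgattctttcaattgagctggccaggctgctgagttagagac
Klf12 at -61455 bp, chr14:100610371-100610570: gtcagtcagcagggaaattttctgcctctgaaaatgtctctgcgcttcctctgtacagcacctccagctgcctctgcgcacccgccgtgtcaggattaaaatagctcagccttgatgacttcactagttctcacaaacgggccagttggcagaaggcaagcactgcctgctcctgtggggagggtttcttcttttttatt
Klf2 at 3557 bp, chr8:74846419-74846618: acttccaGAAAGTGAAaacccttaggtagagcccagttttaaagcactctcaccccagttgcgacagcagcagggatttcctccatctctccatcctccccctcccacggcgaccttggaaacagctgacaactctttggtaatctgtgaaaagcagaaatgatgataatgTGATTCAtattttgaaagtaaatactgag
Klf3 at -7642 bp, chr5:65187021-65187220: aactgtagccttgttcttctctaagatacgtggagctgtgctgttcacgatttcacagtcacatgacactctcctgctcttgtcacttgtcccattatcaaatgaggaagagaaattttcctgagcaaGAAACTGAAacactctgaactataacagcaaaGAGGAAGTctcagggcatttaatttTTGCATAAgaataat
Klf4 at -431701 bp, chr4:55976949-55977148: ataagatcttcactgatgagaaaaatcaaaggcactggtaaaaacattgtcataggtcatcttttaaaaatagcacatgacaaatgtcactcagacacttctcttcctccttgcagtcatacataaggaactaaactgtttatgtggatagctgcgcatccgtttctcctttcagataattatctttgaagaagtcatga
Klf9 at -6186 bp, chr19:23209431-23209630: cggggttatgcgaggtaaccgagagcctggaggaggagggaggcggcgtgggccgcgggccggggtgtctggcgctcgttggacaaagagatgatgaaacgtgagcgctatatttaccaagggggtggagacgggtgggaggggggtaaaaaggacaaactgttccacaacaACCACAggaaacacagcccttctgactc

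Neither Klf12 window nor the Klf4 window held any of these letters. The Klf2 window held 1 AP-1 and 1 IRF match, the Klf3 window 1 match each for PU.1, CEBP and IRF, and the Klf9 window 1 RUNX match. These windows are centred on the untreated peaks, and a shifted centre changes the matches. Around the LPS peak at -6132 bp the Klf9 window held AP-1 as well as RUNX letters. Around the LPS peak at 3529 bp the Klf2 window held CEBP and IRF but no AP-1 letters. Over all 60288 untreated peaks, the AP-1 letters stood in 8.11% of such windows, IRF in 8.33%, PU.1 in 9.45%, CEBP in 9.82% and RUNX in 15.8%. Among the 123 Klf peaks the shares were 10.6% for AP-1, 9.76% for IRF, 8.94% for CEBP and 11.4% for RUNX, and 16 held the PU.1 letters. The GC-box letters GGGGCGGG stood in 16 Klf windows (9.31% of all windows), CCACACCC in 2 (2.21% of all) and the MEF2 letters in 3 (1.08% of all). After LPS, 23 of 127 Klf peaks (18.1%) held the AP-1 letters, against 13.4% of all 54953 peaks. None of the 15 Klf12 peaks after LPS and 2 of the 22 in untreated mice held them. A match describes letters and is no evidence of binding.

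Peak by peak, the difference was spread along the whole Klf12 locus. In untreated mice 20 of its 22 peaks were called higher in CD45.2 cells (adjusted p under 0.01 and over 4-fold, DESeq2), where 2.65% of all 59170 peaks tested were. After LPS 9 of the 12 Klf12 peaks that passed the count minimum were called, against 1.19% of 49180 peaks. A further 3 of the 15 stayed at or under 10 tags in all libraries. Counted over all Klf genes, these calls numbered 12 without the CD45.2 library of untreated mouse 6 and 13 without the CD45.1 library of mouse 4 or 5, and after LPS 4 without the CD45.1 library of mouse 1 and 5 without either library of mouse 2. Calls over all peaks fell in the same fits, from 1567 to 1001, 1080 and 1363 in untreated mice. After LPS they fell from 585 to 242 without CD45.1 of mouse 1, and to 312 and 285 without CD45.1 or CD45.2 of mouse 2. The peaks of 1 locus share their cells and libraries, and the peak sets join regions found in either population, so these counts are not independent tests. In untreated mice 21 of the 22 Klf12 peaks were in none of the separate peak lists of the CD45.1 libraries. A merged peak in no CD45.1 list has to come from a CD45.2 list, so its presence there is no separate result. Of the 22, 14 were in all 3 CD45.2 lists. Of all 60288 merged peaks, 11.5% were in no CD45.1 list and 54.9% in all 3 CD45.2 lists. After LPS 14 of 15 Klf12 peaks were in no CD45.1 list, where 17.9% of all 54953 were.

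The strongest Klf12 peak, at -74553 bp (chr14:100623509-100623627), held 4.2, 3.7 and 3.3 tags in CD45.1 cells of mice 4, 5 and 6 and 96.7, 86.3 and 74.7 in CD45.2 cells. The populations were separated by far more than their spread, with a log2 ratio of -4.58 ± 0.50 (SE, n = 3, adjusted p = 6.79e-17, DESeq2). The peak at -61455 bp (chr14:100610412-100610528) was the only Klf12 peak found in CD45.1 lists of untreated mice. It held 13.5, 10.5 and 7.1 tags in CD45.1 cells against 84.4, 60.0 and 75.5 in CD45.2 cells (log2 ratio -2.82 ± 0.37, adjusted p = 4.37e-12, DESeq2). At -60276 and -72687 bp the CD45.1 libraries held 3 and 3.5 raw tags in all. The ratio of pooled tags was 44.1 at the first (95% interval of counting error 14.7 to 216) and 40.6 at the second (13.5 to 132). The 2 Klf12 peaks not called in untreated mice, at 254900 bp (adjusted p = 0.0475) and -335856 bp (adjusted p = 0.0108), were lower in all CD45.1 than in all CD45.2 libraries too.

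After LPS the same region gave the same order of populations. The peak at -74552 bp (chr14:100623480-100623654) held 4.0, 3.9 and 0.9 tags in CD45.1 cells of mice 1, 2 and 3 and 44.7, 35.8 and 27.0 in CD45.2 cells (log2 ratio -3.59 ± 0.61, adjusted p = 1.37e-06, DESeq2). At -72695 bp the values were 0.8, 0.0 and 0.9 against 64.8, 45.8 and 35.6 tags, and the pooled ratio from 2 raw CD45.1 tags was 67.3 (95% interval of counting error 18.4 to 563). The peaks at -61486 bp (log2 ratio -2.75 ± 0.46, adjusted p = 5.91e-07) and -63446 bp (-4.54 ± 0.82, adjusted p = 6.52e-06, DESeq2) completed the 4 with the smallest adjusted p.

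Tags at marker genes of some other cells moved with this difference. The summed tags of the 3 neuronal markers with peaks (Rbfox3, Snap25 and Syt1, of 4 listed; Neurod6 had none) were 27.5 to 39.4 in CD45.1 and 171 to 202 in CD45.2 libraries of untreated mice. Those of 3 endothelial markers (Cldn5, Pecam1 and Cdh5) were 116 to 123 and 311 to 367. After LPS the neuronal sums were 15.6 to 16.8 and 53.7 to 93.4, and the endothelial ones 84.8 to 133 and 154 to 186. Astrocyte sums (3 of 3 markers with peaks) were 67.0 to 105 and 113 to 139 in untreated mice and 31.8 to 37.3 and 41.5 to 66.1 after LPS. Oligodendrocyte sums, from Mbp and Mog (Olig2 and Sox10 had no peak), were 873 to 901 and 927 to 953 in untreated mice and overlapped after LPS. T cell sums, from Cd3d and Lck (Cd3e had no peak), were 132 to 148 in CD45.1 and 125 to 138 in CD45.2 libraries of untreated mice. These ranges overlap, as did those of T cells and of neutrophils after LPS. The B cell markers had no peak in either treatment, and the neutrophil markers none in untreated mice. The part of other cells in the Klf12 result was not tested.

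The genes whose summed tags in matched peaks followed Klf12 most closely over the 12 libraries, among 12843 genes, were Ptprm, a receptor phosphatase (Pearson r = 0.993), the transcript 4933430N04Rik (r = 0.991) and Eya4, a transcriptional coactivator with phosphatase activity (r = 0.989). Ptprm had a mean of 31.5 tags in CD45.1 cells against 212 in CD45.2 cells of untreated mice, and 46.6 and 262 after LPS. These libraries fall into separate population groups, so the correlations describe a shared difference between populations and carry no p.

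Klf2, the flow-responsive factor that keeps monocytes and T cells quiescent, had 1 called peak, higher in CD45.1 cells, while its promoter did not pass. Klf2 lies at chr8:74842932-74845555. Its promoter peak at -126 bp held 219, 196 and 258 tags in CD45.1 and 265, 205 and 196 in CD45.2 cells of untreated mice, overlapping ranges with a log2 ratio of 0.03 ± 0.16 (adjusted p = 0.955, DESeq2). The peak at 3557 bp (chr8:74846463-74846573), beyond the 3′ end of the gene and annotated as its transcript end region, held 85.4, 78.0 and 93.1 tags in CD45.1 and 8.2, 13.5 and 12.2 in CD45.2 cells. The log2 ratio was 2.84 ± 0.33 (SE, n = 3, adjusted p = 1.17e-14, DESeq2). After LPS the peak there (chr8:74846397-74846584) held 53.8, 55.4 and 40.1 tags in CD45.1 and 12.3, 7.8 and 10.1 in CD45.2 cells (2.33 ± 0.40, adjusted p = 1.61e-06, DESeq2). It was in the separate lists of all 3 CD45.1 libraries and of 0 CD45.2 libraries in either treatment.

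The other Klf2 peaks of untreated mice were split, 4 with a ratio below 0 and 3 above it, and none was called. Upstream at -15214 bp the CD45.1 values were higher, 30.3, 36.5 and 47.4 against 24.6, 19.7 and 14.6 tags (0.98 ± 0.37, adjusted p = 0.0532, DESeq2). At -37220 bp the CD45.2 values of untreated mice were higher, 84.4, 59.6 and 76.3 against 49.4, 46.5 and 34.8 tags, with a log2 ratio of -0.73 ± 0.26 and an adjusted p of 0.0376 (DESeq2), which misses the threshold. After LPS the promoter peak held 114, 134 and 103 tags in CD45.1 and 177, 158 and 140 in CD45.2 cells, groups that did not overlap (log2 ratio -0.43 ± 0.20, adjusted p = 0.226, DESeq2). The genes most like Klf2 over the 12 libraries were Vamp1, Serinc3 and Tlr13, with r from 0.846 to 0.859, lower than for Klf12.

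**Figure D3:**
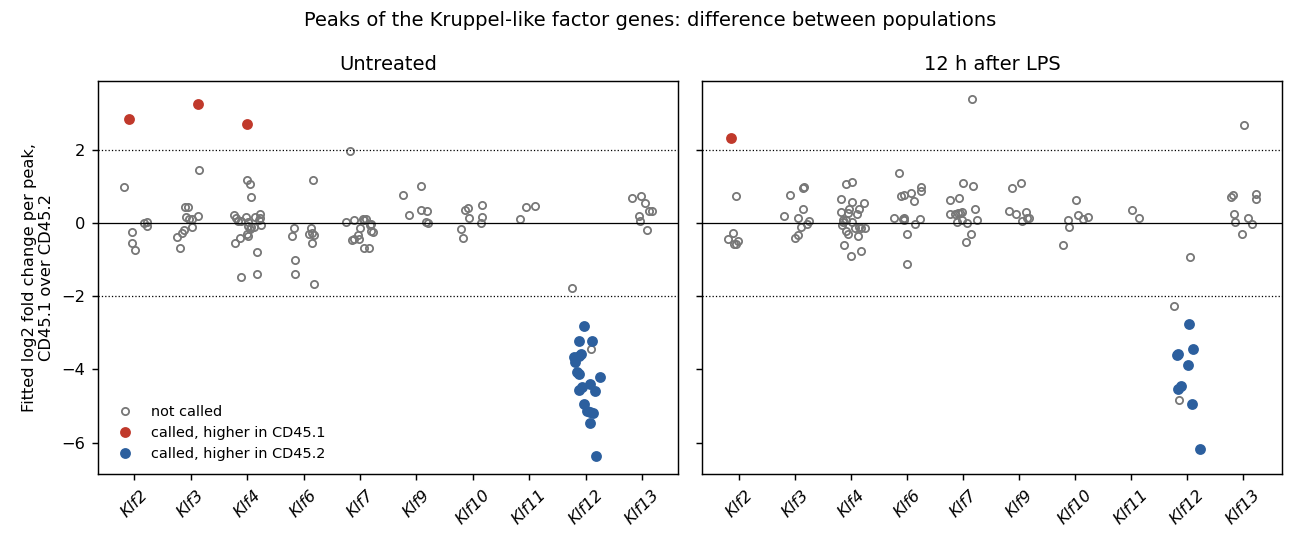
Fitted log2 ratio of CD45.1 over CD45.2 for every tested peak of the 10 genes in untreated mice (left, 123 peaks) and mice 12 h after LPS (right, 114 peaks), each point 1 peak, with filled points for peaks called at an adjusted p under 0.01 and over 4-fold and dotted lines at 4-fold. The Klf12 peaks lie apart at the bottom, and the filled points at the top are single peaks of Klf2, Klf3 and Klf4. The peaks outside Klf12 lie on both sides of 0, with 54.5% above it in untreated mice and 71.6% after LPS.

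Outside Klf12, 3 of 101 peaks of the other 9 genes in untreated mice and 1 of 102 after LPS were called higher in CD45.1 cells, where 3.78% and 1.78% of all peaks were, and 0 were called higher in CD45.2 cells in either treatment by DESeq2 or edgeR. At an unadjusted p under 0.05, 14 of the 101 untreated peaks were higher in CD45.1 and 8 in CD45.2 cells, which is 13.9% and 7.92% where 12.9% and 10.7% of all tested peaks were. After LPS 13 and 1 of 102 were, or 12.7% and 0.980%, where 9.01% and 6.49% of all peaks were. A fitted ratio under 2-fold was found in 87.1% and 90.2% of the peaks of the 9 genes, and in 80.3% and 81.9% of all tested peaks. A log2 ratio above 0 was found in 54.5% and 71.6% of the peaks of the 9 genes, and in 50.1% and 49.4% of all tested peaks.

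Klf3 and Klf4 each had 1 called peak, far upstream and in the untreated table. The Klf4 peak at -431701 bp (chr4:55976996-55977100) held 41.0, 36.5 and 45.7 tags in CD45.1 and 3.3, 7.7 and 6.9 in CD45.2 cells (log2 ratio 2.71 ± 0.47, adjusted p = 4.04e-07, DESeq2). Klf4 is the nearest start site at that distance, which does not show that the element acts on it. After LPS the matching peak stayed under the count minimum, with 6.9, 7.2 and 9.4 against 3.5, 1.7 and 3.3 tags, so the population difference was not tested there. The Klf3 peak at -34031 bp was weak, with 17.7, 11.4 and 7.6 tags in CD45.1 and 1.6, 1.9 and 0.8 in CD45.2 cells (3.24 ± 0.96, adjusted p = 0.00733, DESeq2), and the call was lost in 7 of 10 alternatives. A stronger Klf3 peak at -7642 bp (chr5:65187027-65187214), named here after its values were seen, held 84.4, 82.1 and 125 tags in CD45.1 and 34.4, 35.2 and 36.5 in CD45.2 cells. Its log2 ratio of 1.44 ± 0.26 (adjusted p = 1.83e-06, DESeq2) stayed under the 4-fold limit. After LPS the peak there held 78.0, 52.2 and 40.1 against 26.3, 21.8 and 38.0 tags (0.96 ± 0.34, adjusted p = 0.0712, DESeq2).

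The promoters of the KLF genes were open in both populations, and no difference between the populations was called. There were 15 promoter peaks in untreated mice and 12 after LPS, at 9 of the 10 genes, and 0 were called by DESeq2 or by edgeR. Over all tested promoter peaks 1.61% and 0.919% were called, so that a count of 0 is no result about these promoters. Their log2 ratios lay between -0.44 and 0.44 in untreated mice, and between -0.43 and 0.99 with LPS. An unadjusted p under 0.05 was reached by 1 and 2 of these promoter peaks, a limit at which no share of all promoter peaks was taken. Per 100 bp, the promoter of Klf7 was the most open in untreated mice, with 194 tags in CD45.1 cells against 200 in CD45.2 cells, followed by Klf13 with 178 and 175, Klf6 with 155 and 171, Klf11 with 144 and 137, and Klf2 with 139 and 138. Klf3 (87.4 and 65.1), Klf10 (83.2 and 93.9), Klf4 (72.7 and 71.6) and Klf9 (66.4 and 56.3) were lower. Each value is for the promoter peak of the gene with the most tags. The Klf10 peak at -411 bp held 96.0 and 87.1 per 100 bp and the Klf4 peak at -519 bp 81.0 and 79.1. The order of the lower genes thus depends on which peak is taken. Within CD45.2 cells the ranges of all 8 neighbouring pairs in the order overlapped between libraries. Within CD45.1 cells 6 of 8 did, the exceptions being Klf13 above Klf6 and Klf2 above Klf3. The promoter windows were rich in G and C (median 67.5% over the 15 peaks, against 64.5% over all promoter peaks), and the Klf12 windows were not (50.8%).

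The response to LPS was followed in 87 Klf peaks that could be matched one to one between the tables, with at least 50% overlap in both, of 39390 matched pairs in all. The 12 libraries were scaled together for this, so the tags below differ from those above. In CD45.1 cells 12 of the 87 were higher after LPS and 2 lower (adjusted p under 0.05 and over 2-fold, DESeq2), where 6.78% and 4.93% of 39235 matched peaks were. In CD45.2 cells 10 were higher and 3 lower, where 7.69% and 3.69% were. The matched peaks were wider in the LPS table (median 174 bp against 142 bp). With the width of each peak in its own table as an offset, 11 Klf peaks were higher and 1 lower in CD45.1 cells and 7 higher and 0 lower in CD45.2 cells, and 8 and 5 of the peaks first called higher kept their call. Over all matched peaks in that fit, 2163 of 36953 were higher and 1340 lower in CD45.1 cells. In CD45.2 cells 2467 of 36192 were higher and 881 lower. Without the CD45.2 library of LPS mouse 1, or that of untreated mouse 5, 5 Klf peaks were higher in CD45.2 cells. In these fits 2705 of 38474 and 2319 of 36913 matched peaks were. The few called lower fell to 0 in CD45.1 cells without CD45.1 of mouse 2, 3, 5 or 6, to 1 without the library of CD45.1 cells of mouse 4 or that of CD45.2 cells of mouse 6, and to 0 in CD45.2 cells without CD45.2 of mouse 3 or 6.

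Klf9, the glucocorticoid-responsive repressor, gave the largest of these changes. Its upstream peak at -6186 bp (chr19:23209446-23209615) held 13.1, 5.5 and 29.4 tags in CD45.1 and 9.8, 5.8 and 8.5 in CD45.2 cells of untreated mice. After LPS the values were 130, 140 and 101 in CD45.1 and 141, 105 and 67.8 in CD45.2 cells. All LPS libraries lay above all untreated ones, with log2 changes of 2.96 ± 0.52 (adjusted p = 6.22e-07) and 3.71 ± 0.55 (adjusted p = 1.32e-09, DESeq2, n = 3 per group). The peak had almost the same width in both tables, 170 and 181 bp, and per bp the changes were 3.14 and 3.89. The neighbouring peak at -7032 bp rose in CD45.1 cells, from 3.7, 2.1 and 19.7 to 36.9, 36.0 and 23.1 tags (1.89 ± 0.52, adjusted p = 0.00382, DESeq2). In CD45.2 cells it went from 3.3, 6.3 and 5.8 to 10.1, 20.2 and 11.8 (1.47 ± 0.59, adjusted p = 0.0681). The Klf9 promoter at -123 bp rose in CD45.1 cells by 1.02 ± 0.20 (adjusted p = 1.43e-05, DESeq2) from a mean of 78.6 to 161 tags. In CD45.2 cells its change of 0.91 ± 0.21 was under 2-fold, and per bp the changes were 0.75 and 0.64, both under 2-fold, as the peak was 178 bp wide in the untreated and 260 bp in the LPS table.

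**Figure D4:**
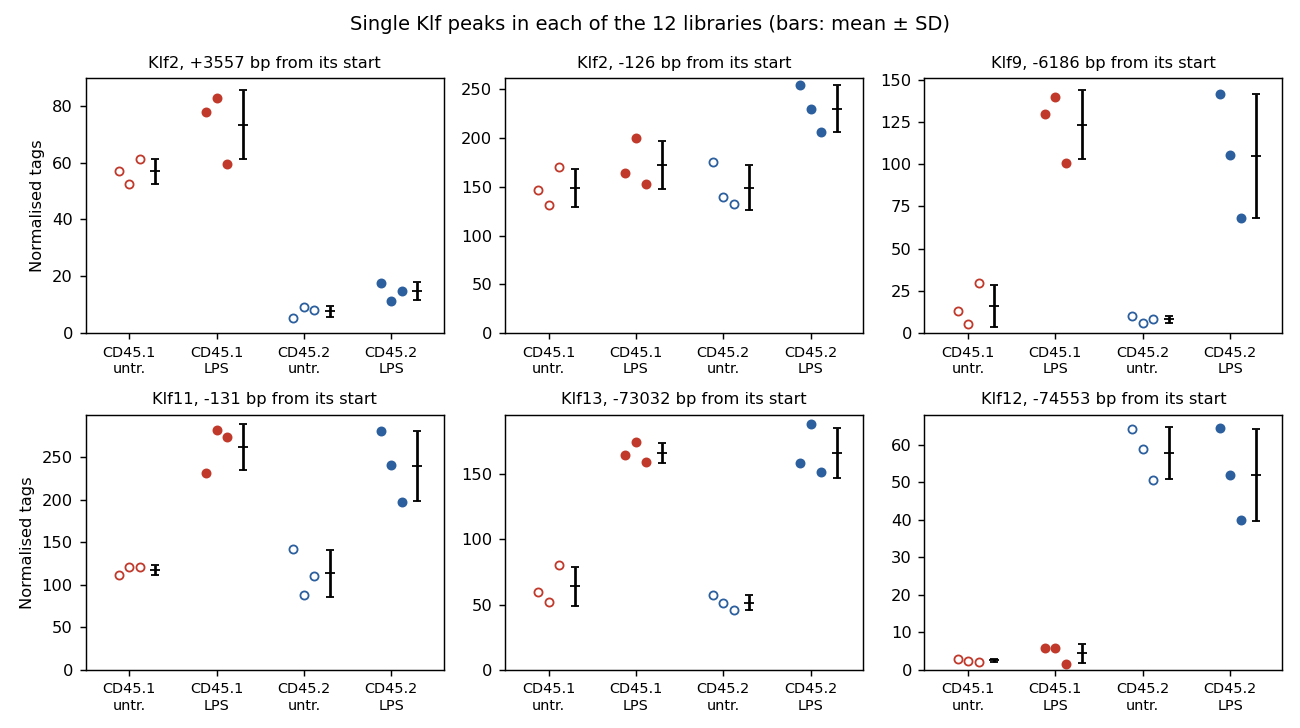
Normalised tags in each of the 12 libraries (scaled together) for 6 single peaks, with open points for untreated and filled points for LPS libraries, CD45.1 in red and CD45.2 in blue, and bars for mean ± SD (n = 3). The Klf9 peak at -6186 bp, the Klf11 promoter and the Klf13 peak at -73032 bp are higher in all LPS libraries of both populations, whereas the Klf2 peak at 3557 bp and the Klf12 peak at -74553 bp separate the populations in both treatments.

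Klf13, a regulator of chemokine expression in T cells, had 2 upstream peaks that rose in both populations. The peak at -73032 bp (chr7:71156751-71156915) went from 59.8, 51.7 and 80.3 to 165, 175 and 160 tags in CD45.1 cells and from 57.7, 50.9 and 45.9 to 159, 188 and 152 in CD45.2 cells. The log2 changes were 1.38 ± 0.19 (adjusted p = 4.87e-11) and 1.71 ± 0.19 (adjusted p = 5.89e-16, DESeq2). The peak at -50995 bp rose by 1.43 ± 0.38 and 1.48 ± 0.37. Both peaks kept their calls per bp. Klf7, a factor known from neuronal growth, had a peak at -70322 bp that rose by 1.89 ± 0.30 in CD45.1 (mean 16.02 to 60.9 tags) and by 1.33 ± 0.32 in CD45.2 cells (15.7 to 38.3, DESeq2). Its per bp changes were 1.56 and 1.00, and the second no longer passed. The promoter of Klf11 rose from a mean of 118 ± 5.92 to 262 ± 27.1 tags in CD45.1 (SD, n = 3) and from 114 ± 27.5 to 240 ± 41.7 in CD45.2 cells. These log2 changes were 1.15 ± 0.18 and 1.08 ± 0.18, but the peak was 123 bp wide in the untreated and 226 bp in the LPS table, and per bp they were 0.54 and 0.48, under 2-fold.

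The remaining calls were in 1 population, except for a Klf2 peak called in both. In CD45.1 cells the Klf6 transcript end peak at 9088 bp rose from a mean of 54.8 to 132 tags and the Klf6 peak at 198871 bp from 6.89 to 25.1, and the Klf7 peaks at -174256 and -184332 bp rose by 1.64 ± 0.35 and 1.53 ± 0.28. The first of these Klf7 peaks was 172 bp wide in the untreated and 339 bp in the LPS table and lost its call per bp, with a change of 0.93. A pair of distal Klf4 peaks moved in opposite directions in CD45.1 cells, up at -581649 bp (1.25 ± 0.45) and down at -431701 bp (-1.24 ± 0.45, from 27.4, 24.5 and 30.1 to 9.96, 10.7 and 13.99 tags, adjusted p = 0.037, DESeq2). In CD45.2 cells the Klf10 intron peak at 1528 bp rose from a mean of 65.7 to 139 tags (1.08 ± 0.21, adjusted p = 8.47e-06, DESeq2). Its change in CD45.1 cells was 0.76 ± 0.20 (adjusted p = 0.00229), under 2-fold. Lower in CD45.2 cells were the Klf6 peak at 50173 bp (-1.42 ± 0.45, adjusted p = 0.0132) and the Klf4 peak at -327782 bp (-1.38 ± 0.52, adjusted p = 0.0493, DESeq2). These calls were lost in 6 and 12 of 16 alternatives, and those of the Klf4 peaks at -581649 and -431701 bp in CD45.1 cells in 7 and 8 of 16. The peak at 31118 bp from Klf2, in an intron of its neighbour Eps15l1, was lower after LPS in both populations, with log2 changes of -1.31 ± 0.44 and -1.37 ± 0.42, and lost both calls per bp. Over 16 alternatives these calls were lost in 6 in CD45.1 and in 4 in CD45.2 cells.

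Klf12 kept its separation between the populations after LPS, and 4 of its 12 matched peaks were called higher after LPS in CD45.2 cells. At -72687 bp the CD45.2 libraries went from 35.4, 29.2 and 31.0 to 93.3, 66.3 and 52.5 tags (mean 31.9 to 70.7, adjusted p = 0.00314, DESeq2), and this call held per bp. The calls at -63436, -135170 and -136305 bp did not hold per bp, where each change was under 2-fold. The strongest peak, at -74553 bp, had a mean of 57.8 tags in CD45.2 cells of untreated and 52.0 of LPS mice. In CD45.1 cells none of the 12 matched Klf12 peaks was called by DESeq2. All 12 had a fitted log2 change above 0 (median 1.01), their median width in the LPS table was 1.57 times that in the untreated table, and 10 had a mean under 5 tags in both treatments.

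**Figure D5:**
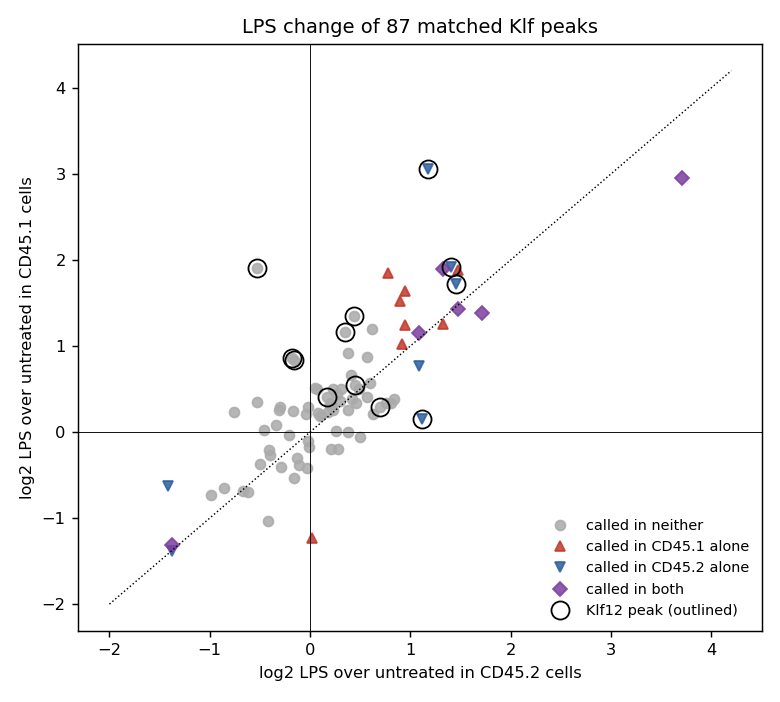
Fitted log2 change after LPS in CD45.1 cells (vertical axis) against that in CD45.2 cells (horizontal axis) for the 87 matched Klf peaks, with colours and shapes for calls (adjusted p under 0.05 and over 2-fold), Klf12 peaks outlined and a dotted line where both changes are equal. The Klf9 peak at -6186 bp lies at the upper right, and most peaks lie between -1 and 1 on both axes.

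The difference between the LPS responses of the populations was tested directly by the interaction of population and treatment. By DESeq2, 0 of the 65 matched Klf peaks with an adjusted p passed at 0.05, where 0.345% of 27825 matched peaks did. edgeR found 0 as well. With so low a share among all matched peaks, a count of 0 is no result about the Klf peaks. Of all 87, 0 reached an unadjusted p under 0.05, a limit at which no share of all matched peaks was taken. The smallest adjusted p was 0.914. The calls in 1 population alone are thus not shown to differ between populations. The intervals were wide for the weaker peaks. On the log2 scale the interaction was -0.75 (95% interval -2.22 to 0.73) for the Klf9 peak at -6186 bp, 0.07 (-0.42 to 0.56) for the Klf11 promoter, -0.33 (-0.86 to 0.20) for the Klf13 peak at -73032 bp and -0.47 (-1.40 to 0.45) for the Klf2 peak at 3557 bp.

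The other genes of the family and pathway are given by list. Loci that passed are to be read against the shares of all loci (7.35% and 7.46% in untreated mice, 4.08% and 2.98% after LPS). No such share was taken for loci counted at an unadjusted p. Of 16 further KLF and SP family genes, 12 had peaks in untreated mice. Klf15, a metabolic regulator, was higher in CD45.2 cells, with 2.19 ± 1.90 against 36.2 ± 3.09 tags (SD, n = 3) in untreated mice and 3.79 ± 1.45 against 30.3 ± 3.00 after LPS (log2 ratio -4.21 ± 0.70 and -3.20 ± 0.59, DESeq2). Klf5 was also higher in CD45.2 (-0.89 ± 0.20) and Sp3 higher in CD45.1 cells (0.37 ± 0.10) in untreated mice, and neither passed after LPS. Of 12 KLF cofactors, CtBP and Sin3A among them, 0 loci passed in either treatment by DESeq2 or edgeR, and 0 and 1 reached an unadjusted p under 0.05, while 1 peak, at Wwp1, was called higher in CD45.1 cells after LPS. The same held for 0 of 7 genes of the ERK5 and MEF2 pathway that induces Klf2 and Klf4, with 0 at an unadjusted p under 0.05 and 0 by edgeR. Single peaks of that list were called higher in CD45.1 cells, 3 of 62 in untreated mice (at Mef2a and Mef2c) and 1 of 54 after LPS (at Mef2c). Over all tested peaks 3.78% in untreated mice and 1.78% after LPS were so called. The Wwp1 peak is to be read against the same shares. Among 10 genes known to respond to Klf2 or Klf4, 3 of 9 loci tested in untreated mice and 3 of 10 after LPS passed as higher in CD45.1 cells and 0 as higher in CD45.2 cells. Thbd (thrombomodulin) was higher in CD45.1 cells in both treatments, by 1.21 ± 0.25 and 1.25 ± 0.33. Mrc1, the mannose receptor, was higher by 0.89 ± 0.18 and 1.10 ± 0.23, S1pr1, the receptor for sphingosine 1-phosphate, by 0.32 ± 0.10 in untreated mice, and Arg1, arginase, by 1.02 ± 0.23 after LPS. Mrc1 is also among the border macrophage markers.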

How the data were processed

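The series holds 12 ATAC-seq libraries. Per the submitters' processing notes, reads were demultiplexed with bcl2fastq 2.17.1.14, aligned with Bowtie2 to mm9, and processed with Picard 1.108 and HOMER. Per the file headers, the authors called peaks in each library with findPeaks at an FDR of 0.001, a fragment length of 300 bp and a minimum of 4-fold over the local region, with normalised tag counts as a signal per 10000000 tags. These lists served only to count in how many libraries a peak was found. The merged tables, 1 for each treatment, hold the deposited estimated counts of tags per peak in steps of 0.5, not normalised, with HOMER's gene names. Peaks with no gene name (12 and 8) stayed out of the sums by gene.

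Counts were rounded and tested with DESeq2 1.42.0 in R 4.3.3 (Wald test, CD45.1 over CD45.2, Benjamini-Hochberg adjustment over all peaks), over peaks with more than 10 tags in at least 1 of 6 libraries. A peak was called at an adjusted p under 0.01 and over 4-fold, and a locus (tags summed over the gene's peaks) at 0.05. Fold changes were not shrunken. LPS effects and the interaction came from 1 model over the 12 libraries. Alternatives used edgeR 4.0.16, other scalings, filters, matches and left-out libraries. The width offset was added after seeing the data. The scripts were tested on simulated data. Motifs and sequences came from the NCBIM37 (mm9) genome, and gene positions from GENCODE.

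CD45.1 and CD45.2 libraries with the same number came from 1 mouse, as the series' design states. Deviations from the group means correlated at 0.0807, 0.0822 and 0.0873 within untreated mice 4, 5 and 6 and at -0.0665, 0.0608 and 0.149 within LPS mice 1, 2 and 3. The test reported first had no block, and the blocked fit is an alternative.

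The named peaks were every called peak (at most 4 per gene, those with the smallest adjusted p), the strongest promoter peak of each gene, and any with a passing interaction. The Klf2 peaks at -15214 and -37220 bp, the Klf3 peak at -7642 bp, the Klf12 peaks not called and the Klf7 peaks at -172350 and -179853 bp were chosen after their values were seen. The genes, the lists and this rule were chosen with earlier results of these data known. Intervals and counts cover counting error only where so stated. The p-values of the fits without a block measure the spread between 3 libraries per group. Those fits do not use that the CD45.1 and CD45.2 libraries came from the same mice.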

Additional observations from a re-analysis of the deposited data

How the results depend on the processing

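The Klf12 difference kept its direction and its side of the threshold in all 22 alternatives run over both treatments, with log2 ratios from -4.61 to -2.73. As Klf12 had no promoter peak, the sums outside promoters held the same Klf12 tags and could hardly differ. All 22 used the same merged peak sets, in which most Klf12 peaks came from CD45.2 lists alone. The Klf2 peak downstream of the gene kept its direction and its call in all 22. Among single Klf12 peaks, 234 of 296 values kept the call and 62 fell short of it, none with the opposite sign. With a mean of at least 20 tags, the Klf peaks called higher in CD45.2 cells were 4 in untreated and 2 in LPS mice, as most Klf12 peaks are too weak to pass. With that filter 415 of 37203 and 110 of 20467 peaks were so called. Leaving out 1 library gave 12 to 17 in untreated mice (12 without CD45.2 of mouse 6, 13 without CD45.1 of mouse 4 or of mouse 5) and 4 to 7 after LPS (4 without CD45.1 of mouse 1, 5 without either library of mouse 2), and 2 to 3 and 1 to 1 called higher in CD45.1 cells. Over all peaks these fits gave 964 to 1363 and 242 to 377 higher in CD45.2 cells. Higher in CD45.1 cells were 1347 to 2039 and 326 to 608. With the replicate block the counts higher in CD45.2 were 18 and 6, those higher in CD45.1 were 2 and 1, 1 locus passed in each treatment and 0 interactions passed. Over all peaks the blocked fits called 1174 and 354 higher in CD45.2 and 1789 and 525 higher in CD45.1 cells. The block changed no locus call. Summing only peaks outside promoters gave 1 locus higher in CD45.1 cells of untreated mice, Klf13 (0.39, adjusted p = 0.017, DESeq2), and leaving out 1 library gave 1 to 2 loci higher in CD45.2, the second being Klf6 without CD45.2 of mouse 5.

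Signs turned only in values near 0. Klf2 became -0.0012 with the strongest peak alone in untreated mice, and 0.039 with total tags and 0.21 outside promoters after LPS. Klf10 became -0.18 and, after LPS, Klf4 became -0.035 with the strongest peak alone. Over single left-out libraries, Klf4 ranged from -0.030 (without CD45.1 of mouse 5) to 0.051 in untreated mice and from -0.087 (without CD45.2 of mouse 3) to 0.17 after LPS, and Klf2 after LPS from -0.20 to 0.014.

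Counts after LPS depended more on the settings. The Klf peaks lower after LPS were 0 in CD45.1 and 1 in CD45.2 cells both with a mean of at least 20 tags and with total-tag scaling, which also left 3 higher in CD45.2 cells, and 1 and 0 per bp. Over all matched peaks, 1238 and 949 were lower with that mean filter and 794 and 855 with total-tag scaling. The latter left 1896 of 37713 higher in CD45.2 cells. Without single libraries those higher after LPS were 10 to 13 in CD45.1 and 5 to 13 in CD45.2 cells (5 without CD45.2 of mouse 1 or of mouse 5), and those lower 0 to 2 and 0 to 3. Over all matched peaks these fits gave 2127 to 2800 and 2319 to 3084 higher, and 907 to 1979 and 745 to 1487 lower. The cause was not tested. Interactions were 0 to 0 in every fit.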

Other observations

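One library stood high at some weak Klf peaks, and also among matched peaks of all genes. At the Klf9 peak at -7032 bp the CD45.1 library of untreated mouse 6 held 19.7 tags against 3.7 and 2.1 in mice 4 and 5, and at the peak at -6186 bp 29.4 against 13.1 and 5.5. At the Klf7 peak at -179853 bp it held 28.3 against 9.3 and 6.4 tags (scaled within the untreated table). It was the highest of the 3 untreated CD45.1 libraries in 1325 of 2662 matched peaks (49.8%) called higher after LPS in CD45.1 cells, against 37.3% of all 39235 matched peaks. Among the Klf peaks it was the highest in 7 of 12 so called and in 38 of all 87. Without it, the rise at -6186 bp in CD45.1 cells was 3.73 and that at -7032 bp was 3.36 on the log2 scale.

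A weak Klf7 peak at -172350 bp after LPS held 14.2 tags in CD45.1 cells of mouse 3 against 2.4 and 3.3 in mice 1 and 2 and 1.8, 0.0 and 0.6 in CD45.2 cells. Its log2 ratio of 3.39 ± 1.34 did not pass (adjusted p = 0.12, DESeq2). Some Klf peaks had no match between the tables, 36 of 123 in untreated mice and 40 of 127 after LPS, and their response to LPS was not tested.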
